A study of Mus musculus with 6 samples.

Results

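The transcripts described here are the 10 genes of the growth hormone (GH) and insulin-like growth factor (IGF) axis named Ghr, Socs2, Igf1, Igf1r, Igfbp2, Igfbp3, Igfbp4, Igfbp5, Igfbp6 and Igfbp7. They were taken by gene symbol from a table of 22838 genes, and each symbol was found in 1 row. The table holds bone marrow RNA from the tibia and femur of Cbx2-/- mice and of wild-type mice, 3 libraries of each genotype. All mice were 3 weeks old and of the mixed strain 129/C57BL/6. The Cbx2-/- mice lack the chromodomain protein Cbx2 of Polycomb repressive complex 1, a silencer of developmental genes. The allele and the sex of the mice are not given in the labels. Per the labels, which give no weight for a single mouse, Cbx2-/- mice weighed 4.0 g and wild-type mice 12.3 g as group means. The series title asks how Cbx2 acts on bone and fat cell formation in long bones, and the low body weight is what raises the question of the growth axis.

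GH is made by the pituitary and acts through its receptor, Ghr, on liver, bone, fat and other tissues. The receptor works through the kinase Jak2 and the transcription factors Stat5a and Stat5b, which switch on Igf1 and also Socs2, a brake on the same receptor. IGF1 then acts through Igf1r, a receptor tyrosine kinase, and most of it is held by binding proteins. Igfbp2 to Igfbp6 bind IGFs with high affinity, while Igfbp7 binds them weakly and is mainly a matrix and vessel wall protein. In bone, IGF1 comes both from the blood and from local cells, and the binding proteins made there can hold it back or keep it near cells.

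Values are FPKM, fragments per kilobase of transcript scaled to the mapped fragments of the library, so levels can be set side by side between genes. The groups were compared by limma on log2(FPKM + 1), a scale that understates changes of low genes. The test took in the 12006 genes that reached 1 FPKM in 3 or more of the 6 libraries, and a gene passed at a Benjamini-Hochberg adjusted p under 0.05 over all of them. Spreads are SD over 3 libraries. Summed FPKM ranged from 599601 to 741192 per library, and the total of reads behind them is unknown. FPKM is relative, so a value falls when other transcripts take more of the reads. Cbx2 itself was at 2.11, 1.87 and 1.88 FPKM in the Cbx2-/- libraries and at 2.90, 3.83 and 2.75 FPKM in the wild-type libraries (limma adjusted p = 0.0558). The groups did not overlap, and Cbx2 reads remained in Cbx2-/- marrow. A value per gene does not show which stretch of the transcript they came from. The labels do not say which mice were litter mates, and p-values measure the spread between these 6 libraries.

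Skeletal muscle transcripts set apart 2 of the Cbx2-/- libraries. The 8 muscle markers summed to 374, 428 and 12.4 FPKM in Cbx2-/- replicates 1, 2 and 3, against 21.4 to 28.3 FPKM in the wild-type libraries. Pairs of libraries correlated at r = 0.946 to 0.987 within Cbx2-/- marrow and at r = 0.986 to 0.989 within wild-type marrow. In each genotype, replicate 1 held Y-linked transcripts (31.1 FPKM summed in Cbx2-/- and 31.1 FPKM in wild-type) and the other libraries held Xist at 11.5 to 24.5 FPKM. The Cbx2-/- library with little muscle RNA, replicate 3, also gave the highest Ghr, Igf1, Igf1r, Socs2 and Igfbp3 of all libraries, as described below. It had the lowest summed FPKM (599601) and the highest haemoglobin share of it, 20.5%. That share was 10.9% and 7.02% in Cbx2-/- replicates 1 and 2, and 13.9% to 17.8% in the wild-type libraries.

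Of the 10 genes, 9 could be tested, and 3 of them were higher in Cbx2-/- marrow: Ghr, Igfbp3 and Igfbp7. None was lower. Over all tested genes 8.8% were higher and 8.31% were lower, 17.1% in all, so 3 of 9 (33.3%) stands beside a background of 17.1%. The median difference was 0.54 on the log2 scale over the 9 tested genes and 0.02 over all tested genes. The groups did not overlap in 6 of the 9 (Ghr, Igf1, Igf1r, Igfbp3, Igfbp4 and Igfbp7), as in 39.6% of all tested genes. In whole marrow, fewer or more cells of a type and less or more RNA per cell cannot be told apart, and this holds for every difference below.

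**Figure D1:**
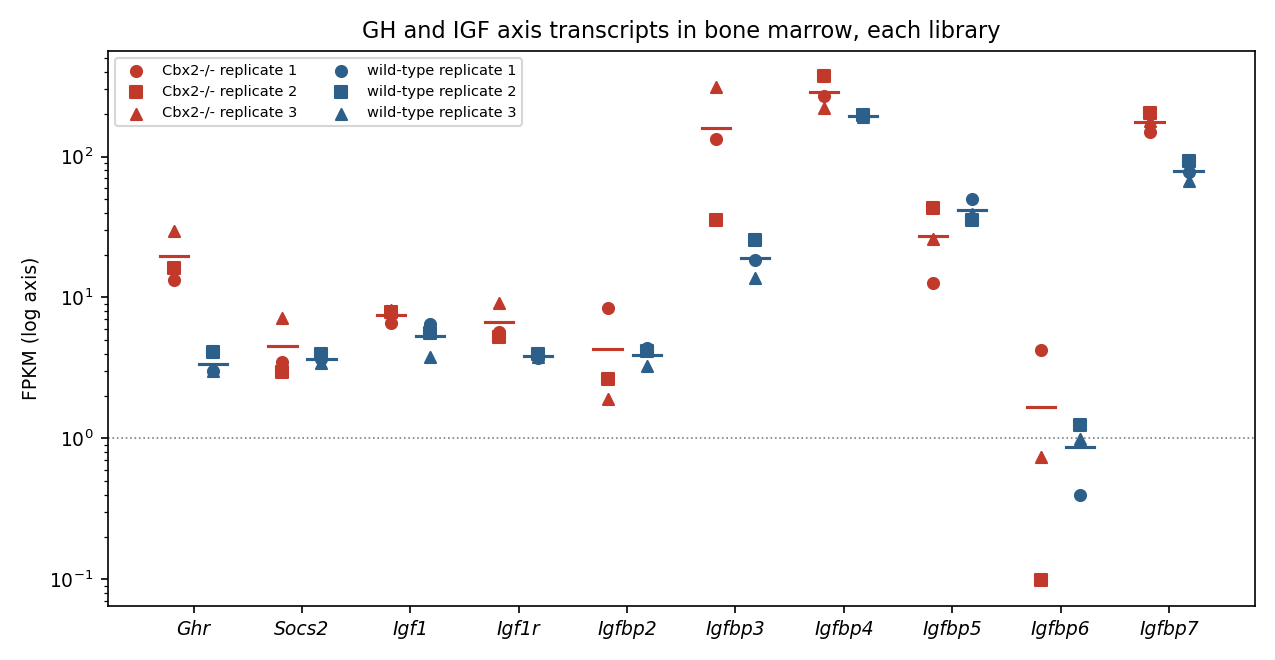
FPKM on a log axis of the 10 genes in each library. Points are libraries, with a symbol for each replicate number, short lines are group means over 3 libraries, and the dotted line marks 1 FPKM. Ghr and Igfbp7 in all 3 Cbx2-/- libraries lie clear of the wild-type libraries, Igfbp3 is spread over a wide range in Cbx2-/- marrow, and Socs2, Igfbp2, Igfbp5 and Igfbp6 overlap.

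The GH receptor gene had the lowest adjusted p of the 9 tested genes. Ghr (chromosome 15, 3317760 to 3583492, minus strand, GENCODE vM21 on GRCm38, the assembly of mm10) encodes the cell surface receptor that starts the response to GH. In Cbx2-/- replicates 1, 2 and 3 it gave 13.2, 16.3 and 29.7 FPKM, against 2.99, 4.13 and 3.02 FPKM in the wild-type libraries. The lowest Cbx2-/- library was above every wild-type library, and replicate 3 was well above the other Cbx2-/- libraries. Ghr rose to 19.7 ± 8.75 FPKM in Cbx2-/- marrow, against 3.38 ± 0.652 FPKM in wild-type marrow (SD, n = 3 each), 5.84-fold higher. The difference was 2.17 ± 0.28 (log2, SE, 95% interval 1.53 to 2.81, limma adjusted p = 0.00281). In wild-type marrow Ghr was the ninth of the 10 genes by mean FPKM, and in Cbx2-/- marrow the fifth. Ghr passed in each of the 6 fits that left out a library, with a difference between 1.85 and 2.40.

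The annotated promoters of the 3 genes that rose are shown as the stretches around their annotated starts. The starts in use in these libraries were not measured. RefSeq (GRCm38.p6) gives 2 starts for Ghr and 1 each for Igfbp3 and Igfbp7. Each run holds the 250 bases before a start and the 50 from it on, 5′ to 3′ on the gene's own strand, all of them minus strand. Capitals mark the GC box, GGGCGG on either strand, a short motif bound by Sp1-type factors.
Ghr first start, chr15:3583303-3583602: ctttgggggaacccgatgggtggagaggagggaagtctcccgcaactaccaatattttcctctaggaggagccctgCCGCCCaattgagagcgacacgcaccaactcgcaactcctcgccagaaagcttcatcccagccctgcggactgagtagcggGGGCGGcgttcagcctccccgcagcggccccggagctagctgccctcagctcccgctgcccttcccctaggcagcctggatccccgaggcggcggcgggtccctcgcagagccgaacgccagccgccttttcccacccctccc
Ghr second start, chr15:3581793-3582092: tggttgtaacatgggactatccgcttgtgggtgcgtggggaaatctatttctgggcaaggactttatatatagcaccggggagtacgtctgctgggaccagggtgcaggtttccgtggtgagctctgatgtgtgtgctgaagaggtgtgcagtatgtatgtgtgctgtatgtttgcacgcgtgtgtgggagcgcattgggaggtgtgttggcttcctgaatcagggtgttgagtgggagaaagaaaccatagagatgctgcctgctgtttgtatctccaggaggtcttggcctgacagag
Igfbp3, chr11:7213874-7214173: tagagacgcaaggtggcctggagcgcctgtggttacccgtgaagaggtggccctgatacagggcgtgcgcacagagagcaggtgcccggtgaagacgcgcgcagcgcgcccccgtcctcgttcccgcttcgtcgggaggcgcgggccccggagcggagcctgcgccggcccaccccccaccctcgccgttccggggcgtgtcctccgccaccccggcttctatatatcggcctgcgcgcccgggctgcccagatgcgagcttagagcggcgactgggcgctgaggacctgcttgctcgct
Igfbp7, chr5:77407996-77408295: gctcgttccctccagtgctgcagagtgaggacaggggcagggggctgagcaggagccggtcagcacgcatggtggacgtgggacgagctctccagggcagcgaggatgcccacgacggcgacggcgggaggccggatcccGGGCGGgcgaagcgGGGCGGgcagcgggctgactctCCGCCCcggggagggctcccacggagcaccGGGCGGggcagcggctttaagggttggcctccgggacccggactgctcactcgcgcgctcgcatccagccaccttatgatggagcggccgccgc

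The runs differ in base composition. The first Ghr start had 67% G and C and 2 GC boxes, while the second had 52.3% and 0. The promoter of Igfbp3 had 71.7% G and C with 37 CpG pairs and 0 GC boxes, and that of Igfbp7 had 73.3% with 33 CpG pairs and 4 GC boxes. The median over all 32851 promoters of the table was 52.7% G and C with 7 CpG pairs. GC boxes were in 35.7% of all promoters and in 4 of the 11 promoters of these genes (Ghr, Igf1r, Igfbp2 and Igfbp7). The table had an entry for 9 of the 10 genes. TTCNNNGAA, the core letters of the STAT5 site, reads the same on both strands and was in 0 of the 11 and in 8.3% of all promoters. The letters of the TATA box, TATAAA, searched on both strands, were in 3 of the 11 (Ghr, Igfbp4 and Igfbp6) and in 13.6% of all. Only Igfbp4 held them on the gene's own strand. The matches of Ghr (second start) and Igfbp6 were on the other strand, where a TATA box would not serve the gene's own start. The GC box and the TATA box share no letters, so their matches cannot overlap. Which Ghr start was used cannot be read from a value per gene.

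Downstream of the receptor, neither Socs2 nor Igf1 passed. Socs2 (chromosome 10, 95385362 to 95417180, minus strand), the GH-induced brake on GH receptor signalling, gave 3.50, 2.96 and 7.11 FPKM in Cbx2-/- replicates 1 to 3 and 3.63, 3.98 and 3.44 FPKM in the wild-type libraries. Cbx2-/- replicate 1 lay within the wild-type range, replicate 2 under it and replicate 3 above it. The difference was 0.17 ± 0.26 (log2, SE, 95% interval -0.43 to 0.76, limma adjusted p = 0.715), and without Cbx2-/- replicate 3 it was -0.15. With Cbx2-/- replicates 1 and 2 left out the Socs2 difference was 0.79. That value rests on replicate 3 alone, so the spread within Cbx2-/- marrow is not measured.

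Igf1 (chromosome 10, 87858265 to 87937042, plus strand), the ligand that carries much of the effect of GH on growth, was at 6.60, 7.92 and 8.20 FPKM in the Cbx2-/- libraries and at 6.48, 5.64 and 3.81 FPKM in the wild-type libraries. The groups did not overlap, but Cbx2-/- replicate 1 and wild-type replicate 1 were nearly level. The means were 7.57 ± 0.855 FPKM in Cbx2-/- and 5.31 ± 1.37 FPKM in wild-type marrow (SD, n = 3 each). The difference of 0.46 ± 0.19 (log2, SE, 95% interval for this gene alone 0.03 to 0.89) did not pass (limma adjusted p = 0.131), and it did not pass in any of the 19 other fits. An antisense transcript, Igf1os, is annotated within Igf1, and no source used here says whether the quantification kept strands apart.

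Ratios within a library do not depend on how libraries were scaled. These ratios to Ghr were added after the values were seen. Igf1 over Ghr was -1.005, -1.039 and -1.856 (log2) in the Cbx2-/- libraries and 1.12, 0.45 and 0.33 in the wild-type libraries. Socs2 over Ghr was -1.92, -2.46 and -2.06 (log2) in the Cbx2-/- libraries and 0.28, -0.05 and 0.19 in the wild-type libraries. Both ratios were lower in every Cbx2-/- library than in every wild-type library. Since Ghr was already known to differ without overlap, this restates its rise beside the small differences of Igf1 and Socs2, and no test is given.

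Igf1r (chromosome 7, 67952827 to 68233668, plus strand), the tyrosine kinase receptor of IGF1, was at 5.73, 5.22 and 9.09 FPKM in the Cbx2-/- libraries and at 3.73, 3.95 and 3.81 FPKM in the wild-type libraries. All Cbx2-/- values were above all wild-type values, and the wild-type libraries were close together (SD 0.112 FPKM, n = 3). The mean was 1.74-fold higher in Cbx2-/- marrow, but the difference of 0.64 ± 0.19 (log2, SE, 95% interval for this gene alone 0.19 to 1.08) did not pass (limma adjusted p = 0.0572). It did pass without Cbx2-/- replicate 2 (0.77, limma adjusted p = 0.0369) and without Cbx2-/- replicate 3 (0.42, limma adjusted p = 0.0267). With Cbx2-/- replicates 1 and 2 left out the difference was 1.06, which rests on Cbx2-/- replicate 3 alone.

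**Figure D2:**
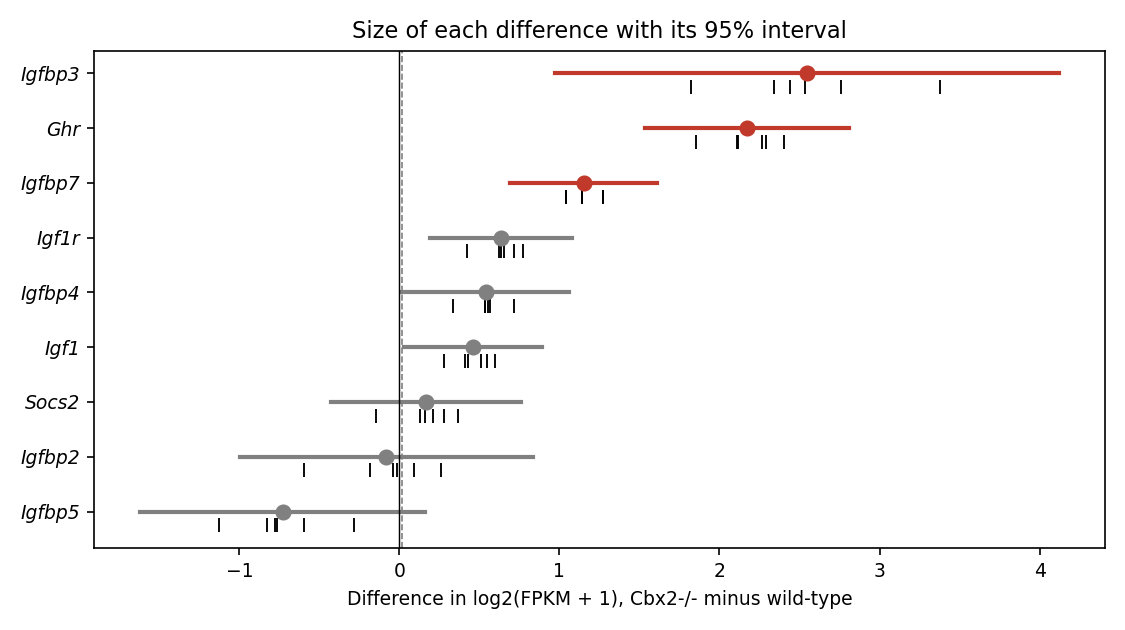
Difference in log2(FPKM + 1), Cbx2-/- minus wild-type, of the 9 tested genes, with the 95% interval of each gene alone as a bar. Red marks genes with a limma adjusted p under 0.05, grey those that did not pass, black ticks are the 6 fits that left out a library, and the dashed line is the median of all tested genes. The bars of Ghr and Igfbp7 lie far from 0, and Igfbp3 has the widest bar.

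Of the binding proteins, Igfbp3 had the largest change and the least even one. Igfbp3 (chromosome 11, 7206086 to 7213923, minus strand) is the main carrier of IGFs in blood and is induced by GH. Cbx2-/- replicates 1, 2 and 3 gave 132, 35.3 and 312 FPKM, against 18.4, 25.5 and 13.8 FPKM in the wild-type libraries. Cbx2-/- replicate 2 was not far above the wild-type range, while replicate 3 was far above it. Igfbp3 rose to 160 ± 141 FPKM in Cbx2-/- marrow, against 19.2 ± 5.87 FPKM in wild-type marrow (SD, n = 3 each), 8.32-fold higher, by 2.55 ± 0.68 (log2, SE, limma adjusted p = 0.0392). That call was lost without wild-type replicate 1, 2 or 3 (limma adjusted p = 0.121, 0.0886 and 0.138) or Cbx2-/- replicate 1 (limma adjusted p = 0.109), while the difference stayed between 1.82 and 3.38 in all 6 of these fits. Its neighbour Igfbp1, annotated 3539 bases away, is a liver gene and was listed at 0 in all 6 libraries.

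Igfbp7 (chromosome 5, 77349240 to 77408041, minus strand), a matrix protein of vessel walls, was at 149, 204 and 179 FPKM in the Cbx2-/- libraries and at 77.6, 93.0 and 67.2 FPKM in the wild-type libraries. The 3 Cbx2-/- libraries were close together and well above the wild-type ones. Igfbp7 rose to 177 ± 27.5 FPKM in Cbx2-/- marrow, against 79.3 ± 12.98 FPKM in wild-type marrow (SD, n = 3 each), 2.23-fold higher. The difference was 1.15 ± 0.20 (log2, SE, 95% interval 0.69 to 1.61, limma adjusted p = 0.0084), and it passed in each of the 6 fits that left out a library. The RNA polymerase subunit gene Polr2b overlaps the end of Igfbp7 on the other strand, and was at 24.2 ± 4.44 FPKM in Cbx2-/- and 23.9 ± 0.523 FPKM in wild-type marrow (limma adjusted p = 0.988).

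Igfbp4 (chromosome 11, 99041244 to 99054392, plus strand), a binding protein known as an inhibitor of IGF action, had the highest mean of the 10 genes in both genotypes, though Igfbp3 was above it in Cbx2-/- replicate 3. It was at 269, 373 and 219 FPKM in the Cbx2-/- libraries and at 191, 196 and 191 FPKM in the wild-type libraries. The groups did not overlap, and Cbx2-/- replicate 3 was nearest to the wild-type libraries. The difference of 0.54 ± 0.23 (log2, SE, 95% interval for this gene alone 0.02 to 1.06) did not pass (limma adjusted p = 0.142). It did pass without Cbx2-/- replicate 3 (0.72, limma adjusted p = 0.0103), and after rescaling without haemoglobin genes (0.52, limma adjusted p = 0.0424).

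Igfbp5 and Igfbp2 lie next to each other on chromosome 1, with 5457 bases between them. Igfbp5 (72857932 to 72874884, minus strand), abundant in bone matrix, was at 12.7, 43.2 and 26.1 FPKM in the Cbx2-/- libraries and at 49.7, 35.7 and 39.2 FPKM in the wild-type libraries. Cbx2-/- replicates 1 and 3 were under the wild-type range and replicate 2 within it. The difference of -0.73 ± 0.38 (log2, SE, 95% interval -1.62 to 0.16) did not pass (limma adjusted p = 0.235), though it did without Cbx2-/- replicate 2 (-1.13, limma adjusted p = 0.0429). With Cbx2-/- replicates 1 and 2 left out the difference was -0.64, which rests on Cbx2-/- replicate 3 alone.

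Igfbp2 (72824503 to 72852474, plus strand), another inhibitory binding protein, was at 8.44, 2.64 and 1.90 FPKM in the Cbx2-/- libraries and at 4.35, 4.16 and 3.26 FPKM in the wild-type libraries. Cbx2-/- replicate 1 was above the wild-type range and replicates 2 and 3 were under it, so the Cbx2-/- libraries lay on both sides. The difference was -0.08 ± 0.40 (log2, SE, 95% interval -0.996 to 0.835, limma adjusted p = 0.918). Its direction depended on the library left out, between -0.59 and 0.26. With Cbx2-/- replicates 1 and 2 left out the difference was -0.76, which rests on Cbx2-/- replicate 3 alone.

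Igfbp6 (chromosome 15, 102144362 to 102149511, plus strand), which prefers IGF2 over IGF1, was too low to test. It was at 4.21, 0.0983 and 0.739 FPKM in the Cbx2-/- libraries and at 0.399, 1.24 and 0.984 FPKM in the wild-type libraries. As with Igfbp2, Cbx2-/- replicate 1 was the highest library. With no filter on low values the difference was 0.23 ± 0.56 (log2, SE, limma adjusted p = 0.841).

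Among themselves the wild-type levels fell into clear steps. Igfbp4, Igfbp7, Igfbp5 and Igfbp3 followed each other with no overlap of their ranges. Igf1, Igfbp2, Igf1r, Socs2 and Ghr then formed a run from 5.31 to 3.38 FPKM in which each neighbour overlapped the next, and Igfbp6 was last. In Cbx2-/- marrow Igfbp4 was first by its mean, with a range apart from that of Igfbp7 but overlapping that of Igfbp3. Igfbp7, Igfbp3, Igfbp5 and Ghr overlapped from each to the next, and Ghr was separate from Igf1 below it.

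The 6 binding proteins summed to 576, 658 and 739 FPKM in the Cbx2-/- libraries and to 341, 356 and 315 FPKM in the wild-type libraries. The groups did not overlap, and the mean sum was 1.95-fold higher in Cbx2-/- marrow (exact two-sided permutation p = 0.1, the lowest that 3 libraries a group can give). Without Igfbp3 the sums were 444, 623 and 427 FPKM in Cbx2-/- and 323, 330 and 301 FPKM in wild-type marrow, 1.56-fold higher by their means. Igf1 came to 1.15, 1.204 and 1.11 FPKM per 100 FPKM of binding protein transcript in the Cbx2-/- libraries and to 1.90, 1.59 and 1.21 FPKM in the wild-type libraries. On the log2 scale this ratio was lower by a mean of -0.42 in Cbx2-/- marrow (exact two-sided permutation p = 0.1). Wild-type replicate 3 was only just above the highest Cbx2-/- library, and with Igfbp7 left out of the sum the groups overlapped.

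The make-up of that sum varied between Cbx2-/- libraries. Igfbp3 was 23.0%, 5.36% and 42.3% of the sum in Cbx2-/- replicates 1, 2 and 3, and 5.38%, 7.16% and 4.38% in the wild-type libraries. Cbx2-/- replicate 2 was therefore within the wild-type range for this share. Igfbp5 was 2.21%, 6.57% and 3.53% in the Cbx2-/- libraries and 14.6%, 10.05% and 12.4% in the wild-type libraries. It was the only binding protein whose share separated the genotypes (exact two-sided permutation p = 0.1, the smallest possible, and 0.45 adjusted over the 6 shares). Igfbp4 was 46.8%, 56.7% and 29.7% of the sum in the Cbx2-/- libraries and 55.9%, 55.1% and 60.5% in the wild-type libraries. Igfbp7 ranged from 24.2% to 31.0% in Cbx2-/- and from 21.3% to 26.2% in wild-type marrow.

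**Figure D3:**
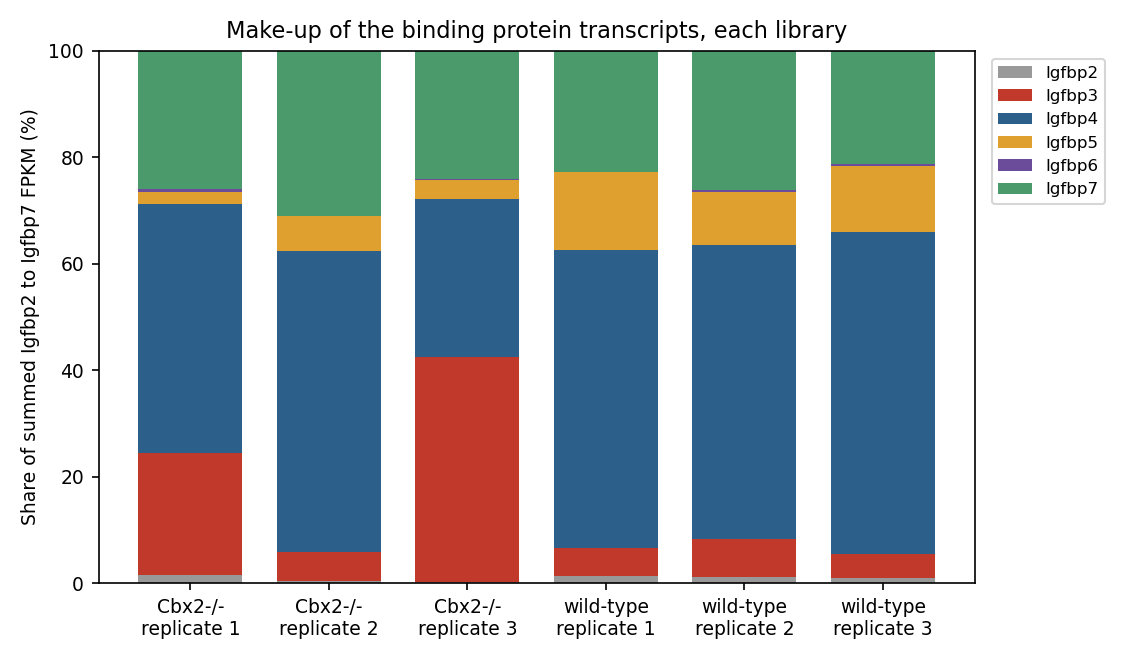
Share of each binding protein in the summed FPKM of Igfbp2 to Igfbp7, one bar per library. Igfbp3 takes 42.3% in Cbx2-/- replicate 3 and 5.36% in Cbx2-/- replicate 2, and the Igfbp5 share is smaller in the 3 Cbx2-/- libraries than in the 3 wild-type libraries.

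Transcripts of several cell types that can make or answer IGFs also differed, and their part in the results above was not tested. The counts of markers past the threshold stand beside 17.1% of all tested genes. The 8 endothelial markers summed to 153 to 199 FPKM in Cbx2-/- and 79.4 to 82.0 FPKM in wild-type libraries, and 6 of 8 rose. The 8 adipocyte markers summed to 2045 to 2644 FPKM in Cbx2-/- and 209 to 413 FPKM in wild-type libraries, and 6 of the 7 tested rose. The 7 marrow stromal markers summed to 695 to 1147 FPKM in Cbx2-/- and 434 to 558 FPKM in wild-type libraries, with 4 of 7 higher. Of the macrophage markers, 3 of 8 rose, and their sum was 749, 660 and 1010 FPKM in Cbx2-/- replicates 1, 2 and 3, against 505 to 540 FPKM in wild-type libraries. Cbx2-/- replicate 3 was thus highest for macrophage markers as for Ghr, Igf1, Igf1r, Socs2 and Igfbp3. The endothelial sum (199 FPKM) was highest in Cbx2-/- replicate 3 as well, and the stromal sum in Cbx2-/- replicate 2 (1147 FPKM). The adipocyte sum was also highest in Cbx2-/- replicate 3 (2644 FPKM), where Fabp4 alone gave 2146 FPKM. By mean log2 level, however, the adipocyte list was highest in Cbx2-/- replicate 2 (5.06, 5.75 and 5.37 in replicates 1, 2 and 3).

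Markers of bone and fibrous tissue went the other way, with counts again beside 17.1% of all tested genes. The 9 osteoblast markers summed to 1037 to 1853 FPKM in Cbx2-/- and 9558 to 15957 FPKM in wild-type libraries, and 7 of 9 fell. Of the fibroblast markers 4 of 5 tested fell, with sums of 47.8 to 103 FPKM in Cbx2-/- and 235 to 400.1 FPKM in wild-type libraries. Igfbp5, abundant in bone matrix, was within its wild-type range in Cbx2-/- replicate 2, under it in replicate 3 and lowest in replicate 1. The fibroblast sum ordered these libraries the same way, with 103 FPKM in replicate 2, 89.2 FPKM in replicate 3 and 47.8 FPKM in replicate 1. This order was not particular to fibroblast markers. By mean log2 level the adipocyte list, which rose, gave it too (5.06, 5.75 and 5.37 in replicates 1, 2 and 3), as did the erythroid list (6.32, 6.58 and 6.51). Osteoblast sums gave another order, with 1853 FPKM in replicate 3 above 1474 FPKM in replicate 2 and 1037 FPKM in replicate 1. The part of any of these cell types in the Igfbp5 values was not tested. Only 2 of 7 chondrocyte markers were high enough to test, of which 1 fell (sums 1.93 to 4.80 FPKM in Cbx2-/- and 26.5 to 28.5 FPKM in wild-type libraries). Of the smooth muscle and pericyte markers 1 of 4 tested fell, and Cbx2-/- replicate 3 had the highest sum, 48.5 FPKM, against 10.2 and 15.8 FPKM in Cbx2-/- replicates 1 and 2 and 11.6 to 15.8 FPKM in wild-type libraries. Markers of hepatocytes, the main source of IGF1 in blood, summed to at most 0.793 FPKM in any library, with Apob listed at 0 in all.

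Markers of blood cells of the marrow were found in both genotypes, at levels that differed. The counts here, too, stand beside 17.1% of all tested genes. The 7 neutrophil markers summed to 52670 to 81819 FPKM in Cbx2-/- and 36678 to 41736 FPKM in wild-type libraries, with 1 of 7 higher. B cell precursor markers fell in 7 of 7, with sums of 50.6 to 95.6 FPKM in Cbx2-/- and 724 to 867 FPKM in wild-type libraries. Erythroid markers fell in 6 of 7, with sums of 1128 to 2008 FPKM in Cbx2-/- and 2682 to 3251 FPKM in wild-type libraries. The muscle markers gave 0 of 5 tested past the threshold. With Cbx2-/- replicates 1 and 2 left out, replicate 3 alone stands for the genotype, and it holds the highest Ghr and Igfbp3 of all libraries. A fit with a covariate for muscle transcripts moved the difference of Igfbp4 from 0.54 to 0.21 (log2). It moved Ghr from 2.17 to 2.76, Igfbp3 from 2.55 to 3.91, Igf1r from 0.64 to 1.02 and Socs2 from 0.17 to 0.74. Muscle markers were high in Cbx2-/- replicates 1 and 2 only, so that fit rests largely on replicate 3 and cannot tell the part of muscle RNA.

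**Figure D4:**
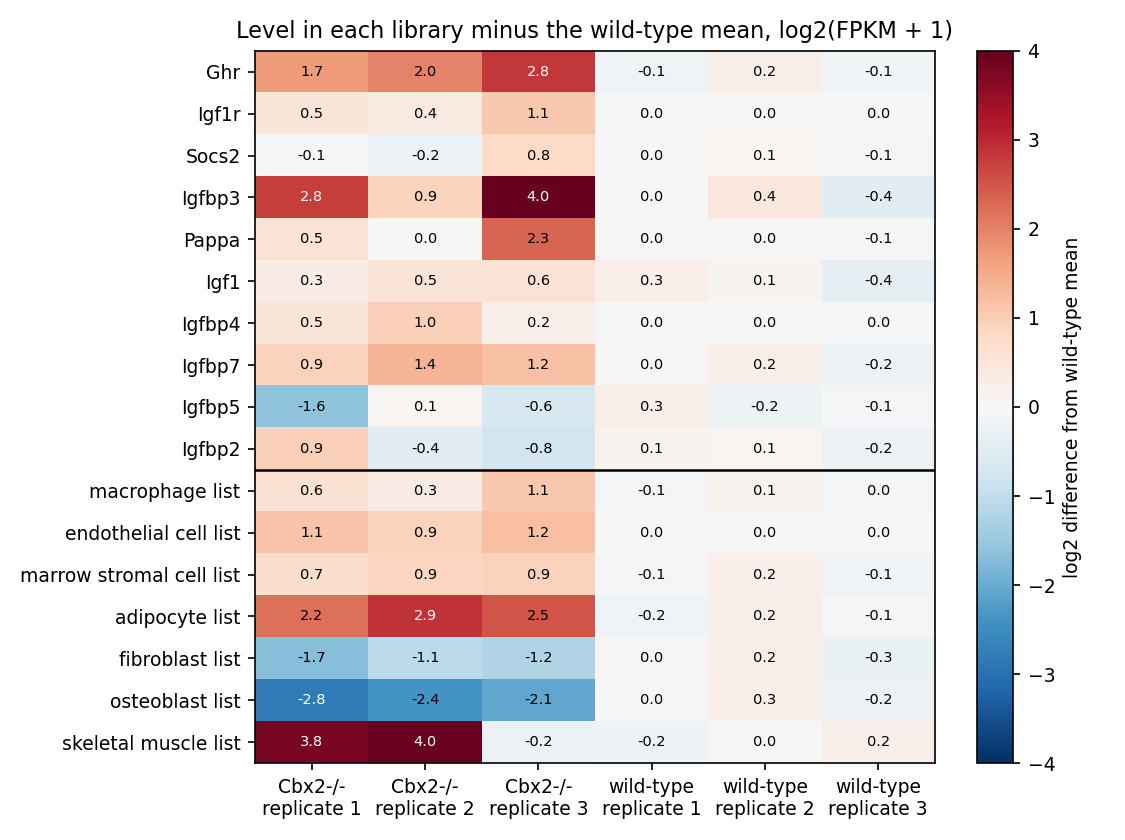
Level of each gene, or mean level of a marker list, in each library minus the wild-type mean, in log2(FPKM + 1) units. Red is higher and blue lower than the wild-type mean, and the upper block holds genes, the lower block marker lists. Cbx2-/- replicate 3 has the largest values of Ghr, Igf1, Igf1r, Socs2, Igfbp3, Pappa and the macrophage and endothelial lists, and by little of the marrow stromal list. Muscle markers are high in Cbx2-/- replicates 1 and 2 only.

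Around these genes, 86 others of the pathway were listed, of which 73 were tested, 11 rose and 9 fell (27.4%, beside 17.1% of all tested genes). Their median difference was 0.07 (log2), against 0.02 over all tested genes. The second ligand Igf2, a fetal growth factor, was at 5.596, 8.18 and 6.79 FPKM in the Cbx2-/- libraries and at 1.23, 1.98 and 1.54 FPKM in the wild-type libraries. Every Cbx2-/- library was above every wild-type one, and Igf2 rose 4.33-fold, by 1.60 ± 0.17 (log2, SE, limma adjusted p = 0.00156), in all 6 fits that left out a library too. Its neighbour H19, the noncoding imprinted partner gene, was at 5.03, 7.81 and 0.614 FPKM in the Cbx2-/- libraries and 0.909, 1.43 and 0.929 FPKM in the wild-type libraries, and did not pass (limma adjusted p = 0.215). Igf2 was the only gene of its list of 4 that could be tested: Igfals, the acid-labile partner of the circulating complex, was at most 0.743 FPKM, and Igfbp1 and Igfbpl1 were listed at 0.

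Of the other receptors, 1 of 4 tested rose and 0 fell (25%, beside 17.1% of all tested genes, median 0.37). Lrp1, an endocytic receptor that also binds Igfbp3 protein, was at 22.1 ± 5.76 FPKM in Cbx2-/- and 11.7 ± 0.724 FPKM in wild-type marrow (SD, n = 3 each, limma adjusted p = 0.027), a call lost without wild-type replicate 1, 2 or 3 or Cbx2-/- replicate 1. Igf2r, which clears IGF2, was at 5.61 ± 0.187 FPKM in Cbx2-/- and 5.20 ± 0.36 FPKM in wild-type marrow (limma adjusted p = 0.653). Tmem219, a cell surface partner of Igfbp3 protein, was at 28.2 ± 5.91 FPKM in Cbx2-/- and 21.6 ± 4.52 FPKM in wild-type marrow (limma adjusted p = 0.28).

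Proteases that cut binding proteins, and so free IGFs, form a list of 6 with their inhibitors, of which 3 were tested, with 0 higher and 2 lower (66.7%, beside 17.1% of all tested genes, median -0.95). With no filter on low values the list gave 1 higher and 1 lower. Htra1, a secreted serine protease that cuts Igfbp5 protein, fell to 4.85 ± 0.528 FPKM in Cbx2-/- marrow, against 12.4 ± 1.65 FPKM in wild-type marrow (limma adjusted p = 0.0024). Adam12, a membrane metalloprotease, fell to 1.31 ± 0.731 FPKM, against 3.34 ± 0.457 FPKM in wild-type marrow (limma adjusted p = 0.0255), a call lost without wild-type replicate 1, 2 or 3 or Cbx2-/- replicate 1. Pappa, the metalloprotease that cuts Igfbp4 protein, gave 1.88, 1.013 and 8.87 FPKM in Cbx2-/- replicates 1 to 3 and 1.03, 1.05 and 0.863 FPKM in the wild-type libraries. Again replicate 3 alone was far up, and Pappa did not pass (limma adjusted p = 0.238). Pappa2, a related protease, was too low to test, at 0.152, 0.480 and 0.490 FPKM in the Cbx2-/- libraries and at 0.0086, 0.00936 and 0 FPKM in the wild-type libraries, with no overlap. The protease inhibitors Stc1 and Stc2 were too low as well, and their groups overlapped.

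Gh, the hormone gene itself, is a pituitary gene but gave a low value in marrow. It was at 0.365, 0.430 and 0.131 FPKM in the Cbx2-/- libraries and at 2.35, 3.78 and 3.09 FPKM in the wild-type libraries. Gh fell by 1.63 on the log2 scale (limma adjusted p = 0.00159) and in all 6 fits that left out a library. Every Cbx2-/- value was under 1 FPKM, so Gh entered the test only through the wild-type libraries, and its call is a description. It lies on chromosome 11 (106300271 to 106301865, minus strand), 9475 bases downstream of Cd79b, a B cell receptor chain gene on the same strand. Cd79b was at 58.2 ± 22.0 FPKM in Cbx2-/- and 258 ± 47.7 FPKM in wild-type marrow (SD, n = 3 each, limma adjusted p = 0.00288), and its part in the Gh value was not tested. The other 5 genes of that list, which holds the releasing hormone, ghrelin, their receptors and the prolactin receptor, were under the filter, with Ghsr listed at 0.

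GH receptor signalling genes gave 5 higher, 1 lower and 8 not passing of 14 tested (42.9%, beside 17.1% of all tested genes, median 0.33). Only 1 or 2 were higher under the 3 other scalings, and 1 or 2 without wild-type replicate 1, 2 or 3 or Cbx2-/- replicate 1, where 0 were lower. Without Cbx2-/- replicate 2, 3 were higher. Socs3, a feedback inhibitor of cytokine receptors, rose to 10.5 ± 1.41 FPKM in Cbx2-/- marrow, against 4.28 ± 1.35 FPKM in wild-type marrow (SD, n = 3 each, limma adjusted p = 0.00824). Cish, a STAT5-induced inhibitor, rose to 3.17 ± 0.324 FPKM in Cbx2-/- marrow, against 1.69 ± 0.325 FPKM in wild-type marrow (limma adjusted p = 0.0221). Stat5b, the factor that carries the GH signal, rose 1.42-fold (limma adjusted p = 0.0369) and the adaptor Sh2b2 1.63-fold (limma adjusted p = 0.0337). Stat3, a factor used by many cytokine receptors, also passed, 1.74-fold higher. It was picked with its values in view, beyond the naming rule. Of these 5 genes, only Socs3 passed in all 6 fits that left out a library, while Stat5b, Sh2b2 and Stat3 passed under none of the 3 other scalings. Without wild-type replicate 2 or 3 or Cbx2-/- replicate 1 the Cish, Stat5b, Sh2b2 and Stat3 calls were lost. They were also lost without wild-type replicate 1 in Stat5b, Sh2b2 and Stat3, and without Cbx2-/- replicate 2 in Stat5b and Cish. The phosphatase Ptpn6 was at 123 ± 14.2 FPKM in Cbx2-/- and 109 ± 2.296 FPKM in wild-type marrow and did not pass (limma adjusted p = 0.543). The kinase Lyn was at 52.2 ± 11.0 FPKM in Cbx2-/- and 49.1 ± 4.88 FPKM in wild-type marrow and did not pass either (limma adjusted p = 0.831).

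STAT5 target genes moved both ways, 3 higher and 3 lower of 10 tested (60%, beside 17.1% of all tested genes, median 0.13). Beside Socs3 and Cish, which are in both lists, the cytokine gene Osm rose 1.70-fold (limma adjusted p = 0.0183, also beyond the naming rule), a call lost without wild-type replicate 1 or 2 or Cbx2-/- replicate 1. Il2ra, an interleukin receptor chain, fell to 0.286 ± 0.104 FPKM in Cbx2-/- marrow, against 2.31 ± 0.505 FPKM in wild-type marrow (limma adjusted p = 0.00221). Its Cbx2-/- values were all under 1 FPKM, so Il2ra, like Gh, entered the test only through the wild-type libraries. Bcl2l1, a survival gene high in red cell precursors, fell to 48.3 ± 11.5 FPKM, against 107 ± 5.51 FPKM in wild-type marrow (limma adjusted p = 0.00804), and the kinase gene Pim2 to 5.87 ± 1.38 FPKM, against 13.4 ± 2.13 FPKM (limma adjusted p = 0.00822). The kinase gene Pim1 was at 57.8 ± 14.7 FPKM in Cbx2-/- and 57.8 ± 9.99 FPKM in wild-type marrow, and the repressor gene Bcl6 at 10.5 ± 4.30 FPKM in Cbx2-/- and 8.14 ± 1.34 FPKM in wild-type marrow, neither passing.

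The shared signalling chain of IGF1 and insulin receptors gave 0 higher, 2 lower and 28 not passing of 30 tested (median -0.04), 6.67% called beside 17.1% of all tested genes. Foxo3 and Foxo1 encode transcription factors that AKT keeps out of the nucleus. Foxo3 fell to 14.1 ± 2.98 FPKM in Cbx2-/- marrow, against 28.3 ± 5.02 FPKM in wild-type marrow (limma adjusted p = 0.014), a call lost without wild-type replicate 1 or 2 or Cbx2-/- replicate 1. Foxo1 fell to 4.38 ± 1.30 FPKM, against 8.89 ± 1.502 FPKM (limma adjusted p = 0.0221), a call lost without wild-type replicate 2 or 3 or Cbx2-/- replicate 1. Akt1, the kinase, was at 121 ± 4.80 FPKM in Cbx2-/- and 88.2 ± 8.24 FPKM in wild-type marrow (limma adjusted p = 0.0872). Eif4ebp1, a brake on translation, was at 112 ± 32.3 FPKM in Cbx2-/- and 77.1 ± 2.73 FPKM in wild-type marrow (limma adjusted p = 0.187). Without Cbx2-/- replicate 3, 2 genes of this list were higher and 8 lower. Without wild-type replicate 1 or 3, 1 was lower, and without wild-type replicate 2 or Cbx2-/- replicate 1, 0 were.

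FOXO target genes gave 3 higher and 0 lower of 13 tested (23.1%, near the 17.1% of all tested genes, median 0.29). Cited2, a regulator of hypoxia responses, rose to 74.5 ± 7.74 FPKM in Cbx2-/- marrow, against 38.2 ± 2.12 FPKM in wild-type marrow (limma adjusted p = 0.00637). Bnip3, a mitophagy gene, rose 2.68-fold (limma adjusted p = 0.0139), a call lost without wild-type replicate 2 or 3. Txnip, which restrains glucose uptake, rose 2.23-fold (limma adjusted p = 0.0268), a call lost without wild-type replicate 1 or 3 or Cbx2-/- replicate 1. Cdkn1b, a cell cycle inhibitor, was at 26.2 ± 10.7 FPKM in Cbx2-/- and 43.1 ± 10.1 FPKM in wild-type marrow, and the stress gene Ddit4 at 39.2 ± 32.7 FPKM in Cbx2-/- and 26.4 ± 5.14 FPKM in wild-type marrow, neither passing (limma adjusted p = 0.116 and 0.741). Without Cbx2-/- replicate 3 the list gave 5 higher and 4 lower, and without wild-type replicate 3 it gave 1 higher.

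**Figure D5:**
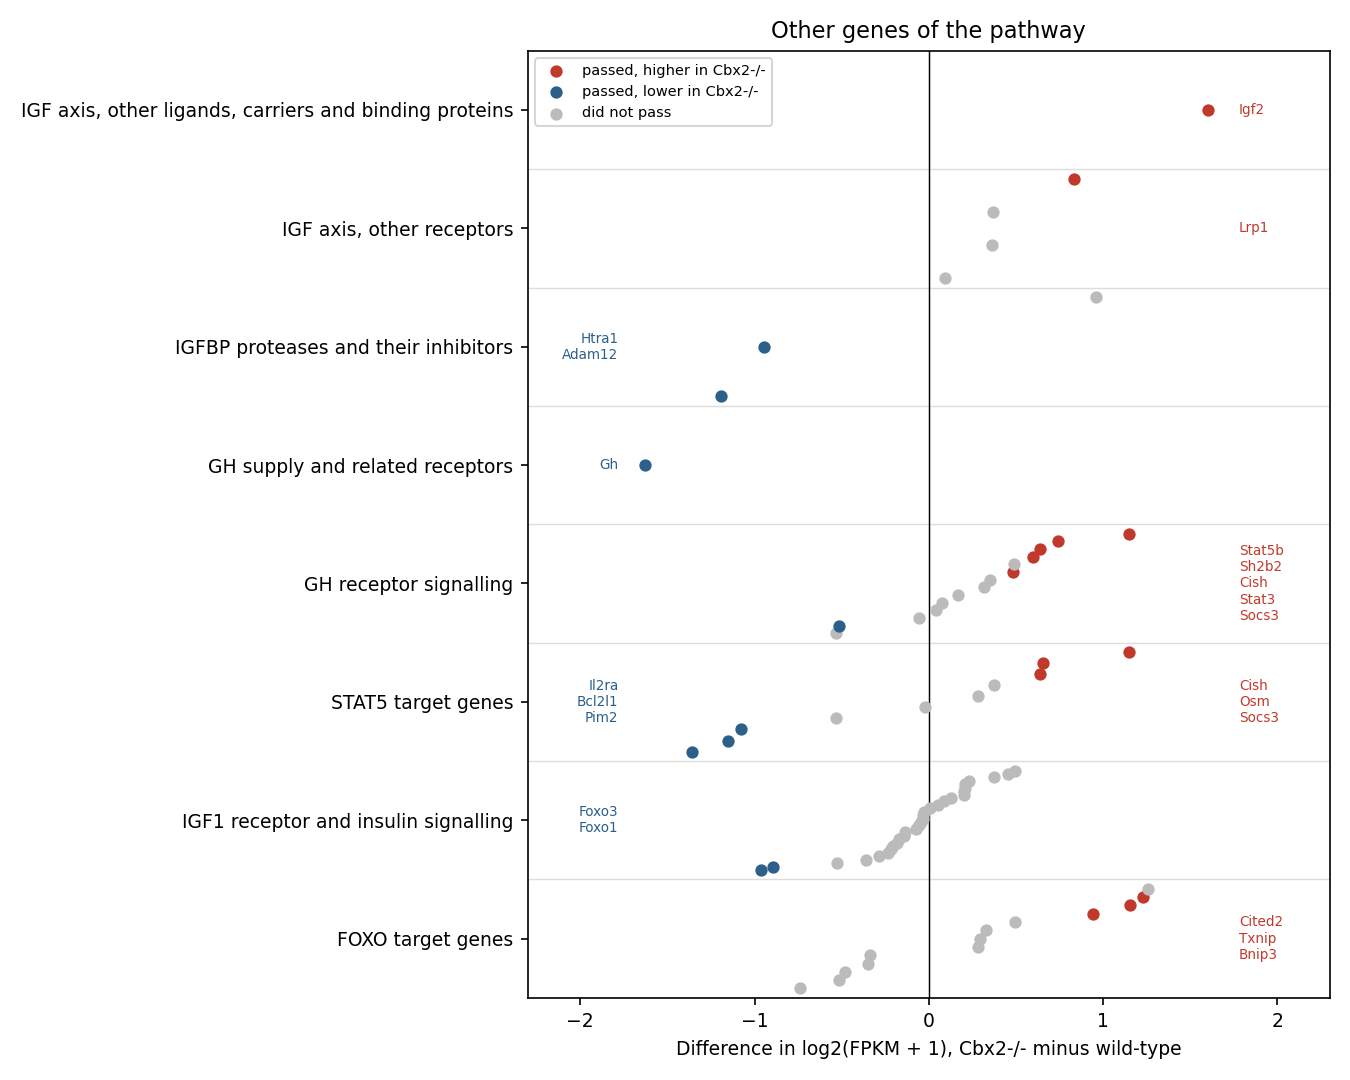
Difference in log2(FPKM + 1), Cbx2-/- minus wild-type, of the other tested genes of the pathway by list. Red points passed as higher (labelled at the right where the text gives them), blue points passed as lower (labelled at the left where the text gives them) and grey points did not pass. GH receptor signalling genes that passed are mostly higher, and those of the IGF1 receptor and insulin chain are mostly grey.

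Genes whose log2 values followed each member most closely over the 6 libraries were listed as a description, among 10169 genes with a mean of at least 2 FPKM. All 6 points share 2 genotypes, and many genes correlate this way: 367 genes had r over 0.95 with Ghr. Counts over 0.95 were 408 for Igf1r, 217 for Igfbp3, 150 for Igfbp7 and 143 for Socs2, so the genes named are a few of many. Igsf6, a myeloid surface protein gene, was among those of Ghr (r = 0.998). For Igf1r the closest were the macrophage complement gene C1qb (r = 0.998) and Epn2 (r = 0.997). Igfbp3 was followed by Ufl1 (r = 0.996) and by Mertk, a receptor for dying cells on macrophages (r = 0.995). Socs2 was followed by Ptprj (r = 0.998) and Aff4 (r = 0.997), and Igfbp7 by Slc25a45 (r = 0.993) and Rnf44 (r = 0.992).

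The other members had fewer close followers. Among them were Fuca2 (r = 0.993) and Mgst2 (r = 0.990) for Igfbp4, Vipas39 (r = 0.984) for Igf1, Tnfsf13b (r = 0.985) and Cd101 (r = 0.980) for Igfbp5, and Sec23b (r = 0.968) and Sbds (r = 0.965) for Igfbp2. Only 7 genes had r over 0.95 with Igfbp2, 9 with Igfbp5, 15 with Igf1 and 50 with Igfbp4.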

How the data were processed

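Marrow RNA of 3 Cbx2-/- and 3 wild-type mice was read as stranded, poly(A)-selected libraries with single-end reads, per the labels' protocols. The authors deposited 1 FPKM value per gene and library. Per the submitters' processing notes, the tools were FastQC 0.11.5, TopHat2 2.1.0 and Cufflinks 2.2.1, and the build mm10. For their settings, the annotation and the depth the sources used here give nothing, so no counting interval can be given. The table has 18 further columns (confidence limits and status) that were not used.

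The comparison used R 4.3.3 and limma 3.58.1, with a mean-variance trend, no covariate and a pseudocount of 1. On simulated data this fit recovered 49% of genes changed by 1 and 86% of those changed by 2 (log2). A gene that did not pass can therefore still differ. Members, lists and tests were chosen with earlier results of these data known. Genes named by rule are the 10 members and Cbx2, up to 4 called genes per list by lowest adjusted p, up to 2 not called by highest mean FPKM, and the 2 genes most like each member. Other pseudocounts, filters, scalings, covariates and left-out libraries were tried, 19 fits in all. Some genes that the naming rule or a count takes in are not reported here. Positions are from GENCODE, promoters from RefSeq. Of 9 macrophage markers 8 were matched by symbol. Figures were drawn with matplotlib 3.10.9.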

Additional observations from a re-analysis of the deposited data

How the results depend on the processing

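Ghr and Igfbp7 passed in all 19 other fits. Igfbp3 kept its direction in all 19 and passed in 11. It did not pass with no filter on low values (limma adjusted p = 0.0862), after rescaling without haemoglobin genes (0.0627), with the replicate block (0.058) or with a covariate for Xist-positive libraries (0.0622), beside the left-out libraries named above. Igf1 passed in none. The count of members that rose was 2 to 5 when 1 library was left out, and 0 to 1 fell. It was 5 with a covariate for muscle transcripts (Socs2 and Igf1r added). Over all genes, 1057 rose and 998 fell. Leaving out 1 library gave 367 to 2069 higher and 475 to 1719 lower. The muscle covariate gave 2138 and 2715, leaving out Cbx2-/- replicates 1 and 2 gave 2047 and 2714, and rescaling without haemoglobin genes gave 598 higher. Over the pathway lists, 11 rose and 9 fell. Leaving out 1 library gave 4 to 17 higher and 5 to 19 lower, rescaling without haemoglobin genes 4 higher, the Xist covariate 7, the muscle covariate 24 and leaving out Cbx2-/- replicates 1 and 2 gave 23. Without Cbx2-/- replicates 1 and 2 the Igfbp3 share was 36.6 percentage points above the wild-type mean, against 17.9 with all libraries. The Igfbp4 share then differed by -27.5, against -12.8. The causes were not tested. No scaling moved the median of all genes by 0.1.

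With the replicate number as a block, 634 genes rose over all genes, 4 over the pathway lists (1 in GH receptor signalling) and 2 among the members. Deviations from group means correlated at 0.194, -0.179 and -0.103 between libraries with the same number, and not every library correlated best with its own number. With 3 libraries a group these correlations cannot exclude pairs, and replicate 1 held Y-linked transcripts in each genotype. As no label pairs the mice, the numbers were not taken as pairs.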
